A study of Mus musculus with 16 samples.

Results

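Fmr1, its paralogues Fxr1 and Fxr2, and 7 genes for proteins known to bind or travel with the Fmr1 product (Cyfip1, Cyfip2, Nufip1, Nufip2, Caprin1, Stau1 and Stau2) were followed in RNA of the hippocampal CA1 subfield. The members were picked by gene symbol, and their 10 symbols are among 46403 in the deposited tables, with 91 annotated transcripts out of 111706. The libraries came from 8 mice labelled Fmr1-KO and 8 WT mice, whose genotype label reads C57BL/6. In the active place avoidance task all of the mice served as yoked controls. The labels do not describe the knockout allele, the age or sex of the mice, or whether the genotypes were littermates. Each library carries its own animal label, and the p-values measure the spread between these libraries.

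FMRP, the Fmr1 protein, binds mRNAs on polyribosomes and holds back their translation, and its loss causes fragile X syndrome. The paralogues Fxr1 and Fxr2 encode RNA-binding proteins of the same family that form complexes with FMRP. In neurons FMRP travels in RNA granules to dendrites, and through the Cyfip proteins it is linked both to the translation cap and to the WAVE complex that drives actin branching. The Nufip proteins bind FMRP in the nucleus or cytoplasm, Caprin1 is a granule protein, and the Staufens carry double-stranded RNA into dendrites.

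Fmr1 lies on chromosome X at 68678541 to 68717963 on the plus strand (GRCm38, the build of the GENCODE M21 annotation, ENSMUSG00000000838). All 13 of its transcripts in the deposited tables have the same identifier and length in that annotation. Of these, 6 are annotated as protein-coding, 6 as retaining an intron and 1 as a processed transcript. The protein-coding ones differ in exon 12, an exon of 63 bases (21 codons) at chrX:68705861-68705923 that is known to be alternatively spliced. Fmr1-001, Fmr1-007 and Fmr1-009 contain it, and Fmr1-005, Fmr1-006 and Fmr1-008 join exon 11 directly to exon 13. The protein-coding forms also differ in where they start and at the edges of exons 10, 15 and 17. The retained-intron transcripts Fmr1-002, Fmr1-004 and Fmr1-010 start in exon 1, whereas Fmr1-003, Fmr1-012 and Fmr1-013 start inside the gene. Sequences with and without exon 12, and from Fmr1-003 and Fmr1-013, are shown 5′ to 3′ from the plus strand. They are printed as the GENCODE M21 transcripts give them. Capitals mark exon 12 in the first line, and intron bases in the third and the fourth, where the annotated transcript runs on into a coding exon written in lower case.
exon 12 in Fmr1-001: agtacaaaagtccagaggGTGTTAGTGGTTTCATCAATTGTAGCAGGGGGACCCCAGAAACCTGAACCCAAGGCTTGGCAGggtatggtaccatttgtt
exon 11 to exon 13 in Fmr1-006: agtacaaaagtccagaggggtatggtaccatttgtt
intron 3 into exon 4 in Fmr1-003: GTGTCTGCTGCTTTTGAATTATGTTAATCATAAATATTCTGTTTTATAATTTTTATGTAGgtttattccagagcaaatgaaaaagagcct
intron 14 into exon 15 in Fmr1-013: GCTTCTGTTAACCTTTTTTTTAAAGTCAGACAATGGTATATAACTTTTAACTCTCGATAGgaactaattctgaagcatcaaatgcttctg
The first and second lines span chrX:68705363-68708059 with the introns removed, the third chrX:68694954-68695043 and the fourth chrX:68712171-68712260.

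Libraries held 1480966 to 2979481 estimated counts in Fmr1-KO and 2126632 to 3275003 in 6 of the WT mice, but 878484 in WT replicate 3 and 515103 in WT replicate 6. Protein-coding transcripts took 80.67% and 58.38% of the counts in these 2 WT libraries, against 87.59% to 91.8% in the other 14, and the members' gene-level differences are given with and without them. The CA1 pyramidal markers Wfs1, Fibcd1, Mpped1 and Pou3f1 were all present, with a summed level of 1056 to 1433 TPM in Fmr1-KO and 126 to 1386 TPM in WT libraries. The 3 CA2 markers summed to 97.3 to 154 TPM in Fmr1-KO and 9.08 to 147 TPM in WT, most of it from Rgs14 (means 126 and 88.6 TPM). The 4 CA3 markers summed to 9.37 to 53.7 TPM in Fmr1-KO and 4.29 to 33.2 TPM in WT, most of it from Bok (means 28.0 and 22.0 TPM), and the 3 dentate markers to at most 17.8 TPM in Fmr1-KO and 3.76 TPM in WT. Of the 2 choroid plexus markers, Folr1 was at 0 in every library, and their sum reached 2.15 TPM in Fmr1-KO and 0 in WT. All 20 tested markers of astrocytes, microglia, oligodendrocytes and vascular cells had log2 fold changes below 0, with list medians of −0.38, −0.31, −0.43 and −0.50. Without WT replicates 3 and 6 these medians were −0.08, −0.14, −0.37 and −0.41. In that set Aldh1l1, Olig2 and Pecam1 stood above 0, at 0.14, 0.24 and 0.17, and the rest stayed below. With all libraries 4 of 5 interneuron markers also lay below 0, with a median of −0.19 both with and without those 2 libraries. Of the 3 general neuron markers 1 lay below 0, with a median of 0.01, and of 0.09 without those libraries. Summed astrocyte markers ranged from 228 to 282 TPM in Fmr1-KO and 26.4 to 347 TPM in WT, and summed oligodendrocyte markers from 125 to 296 TPM and 25.2 to 473 TPM. Summed microglial markers ranged from 77.9 to 123 TPM in Fmr1-KO and 9.62 to 148 TPM in WT, and summed vascular markers from 24.7 to 66.7 TPM and 24.7 to 81.8 TPM. Their part in the results was not tested, and in bulk tissue fewer cells of a type and less RNA per cell cannot be told apart.

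Among the 10 genes Fmr1 alone passed the threshold, and it fell in the Fmr1-KO mice. Its level was 8.44, 21.8 and 32.0 CPM (lowest, median and highest library; TMM-normalised CPM, which are counts scaled to a common library size) in Fmr1-KO and 39.6, 54.9 and 99.7 CPM in WT. The groups did not overlap, which held in this direction for 4 of the 11515 genes tested, or 0.0347%. In either direction it held for 0.0434% of genes and for no other member. Its log2 fold change came to −1.41 (SE 0.22, 95% interval −1.86 to −0.95), with an adjusted p of 0.0112 in edgeR's quasi-likelihood test with Benjamini-Hochberg adjustment over all genes. That test called 0.0174% of all genes, so 1 member of 10 stands against 2 genes in 11515. Without WT replicates 3 and 6, all Fmr1-KO libraries lay below the other 6 WT libraries for Fmr1, as for 0.101% of 11866 genes, and for no member did they all lie above them (0.0421% of genes). In that set edgeR called 0.0169% of genes and, of the members, Fmr1 (log2 fold change −1.51, adjusted p 0.00119). These levels rest on 18 to 86 estimated counts per library in Fmr1-KO and 14 to 228 in WT. The letter B or D at the end of the animal label was carried by 4 mice of each genotype, and the labels do not say what it means. Among B mice Fmr1 stood at 19.1 ± 8.14 CPM in Fmr1-KO against 46.1 ± 8.27 CPM in WT (SD, n = 4 each), and among D mice at 25.4 ± 4.88 and 70.1 ± 20.7 CPM. The exact permutation p was 0.0286 in either set, the smallest that 4 against 4 can give.

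**Figure D1:**
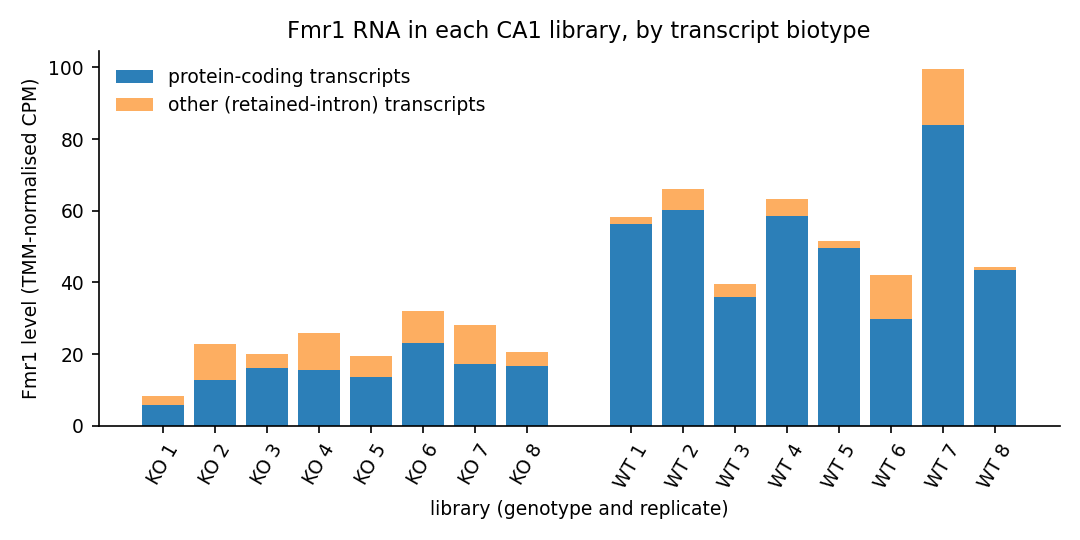
Fmr1 level in TMM-normalised CPM (y axis) in each of the 8 Fmr1-KO and 8 WT libraries (x axis), stacked by annotated biotype. Protein-coding transcripts reach 5.88 to 23.1 CPM in Fmr1-KO and 29.9 to 83.9 CPM in WT, while the other transcripts overlap between the genotypes.

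The make-up of the remaining Fmr1 RNA differed between the genotypes. Protein-coding transcripts took 55.3%, 70.1% and 81.0% (lowest, median and highest library) of the Fmr1 counts in Fmr1-KO and 71.0%, 91.8% and 97.8% in WT. The mean share was 68.7 ± 9.28% in Fmr1-KO and 90.1 ± 8.84% in WT (SD, n = 8 each; two-sided exact permutation p = 0.000777, unadjusted, 8 genes tested). Of the 8 genes Fmr1 alone had an exact p under 0.05 in this share, as did 5.06% of the 3659 genes with both kinds of transcript and at least 10 counts in every library. The WT library that overlapped the Fmr1-KO range was replicate 6, where Fmr1 had 14 counts. Without WT replicates 3 and 6 the WT share was 93.1 ± 5.09% (n = 6), the groups did not overlap, and the exact permutation p was 0.000666. Among B mice the share was 70.3 ± 7.56% in Fmr1-KO and 89.2 ± 12.5% in WT (n = 4 each, exact permutation p = 0.0571), and among D mice 67.1 ± 11.7% and 91.0 ± 4.97% (p = 0.0286, exact permutation). As a share of Fmr1's TPM, which corrects for transcript length, it was 42.1 ± 11.6% in Fmr1-KO and 77.6 ± 24.6% in WT (n = 8 each, exact permutation p = 0.00482). On that scale the groups overlapped, with 29.3% to 65.3% in Fmr1-KO and 19.4% to 96.8% in WT.

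In level, the protein-coding transcripts gave 15.1 ± 4.87 CPM in Fmr1-KO, against 52.2 ± 16.7 CPM in WT (n = 8 each), with no overlap and an exact permutation p of 0.000155, the smallest that 8 against 8 can give. The other transcripts gave 7.10 ± 3.39 CPM in Fmr1-KO, against 5.87 ± 5.35 CPM in WT (exact permutation p = 0.586, n = 8 each). WT replicate 6, at 12.2 CPM, had 4.06 estimated counts on them.

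**Figure D2:**
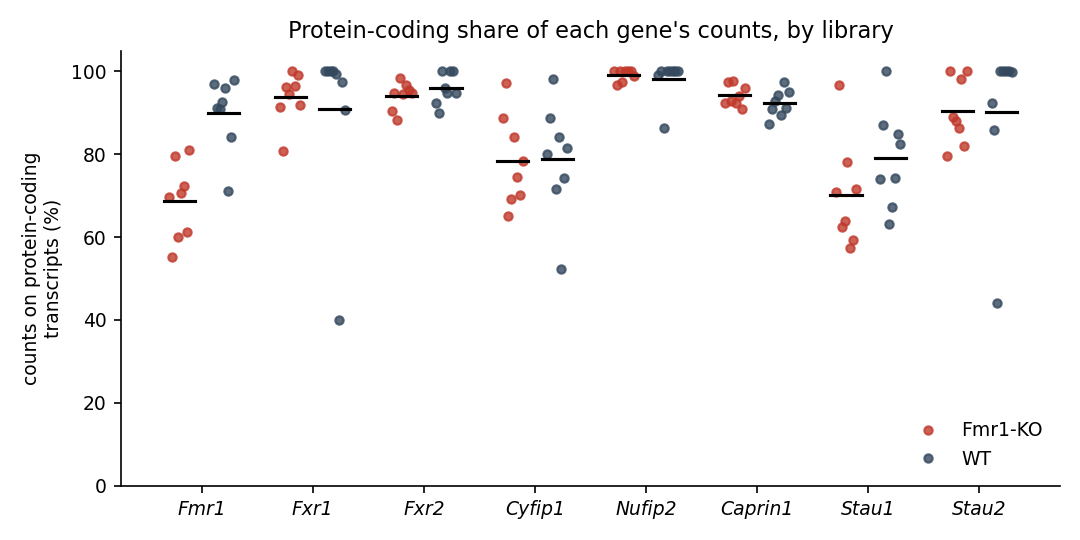
Percentage of each gene's estimated counts on protein-coding transcripts (y axis) for the 8 genes that also have other counted transcripts (x axis), 1 point per library, with Fmr1-KO in red left of WT in grey-blue and a bar at the mean. Fmr1 averages 68.7% in Fmr1-KO and 90.1% in WT, while the other genes' libraries overlap widely.

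For the 7 other genes with counted non-coding transcripts, the share gave exact permutation p-values of 0.164 to 0.990 (n = 8 each). Stau1 had the widest gap among them, with 70.1 ± 12.8% in Fmr1-KO and 79.2 ± 11.9% in WT (n = 8 each, exact permutation p = 0.164). Without Fmr1-KO replicate 2, whose Stau1 share was 96.7%, the Stau1 means were 66.3 ± 7.54% in Fmr1-KO (n = 7) and 79.2 ± 11.9% in WT (n = 8), with an exact permutation p of 0.0272. Whether the Fmr1 difference exceeds that of Stau1 was not tested.

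Transcript by transcript, Fmr1 counts were few and were placed unevenly. Fmr1-006, without exon 12, was the leading transcript in both genotypes, with 51.2% of the summed Fmr1 counts in Fmr1-KO and 61.4% in WT. It was the single Fmr1 transcript with enough counts to be tested, with a log2 fold change of −1.57 (SE 0.88) and an unadjusted p of 0.0921 in edgeR (adjusted p 0.99986). The deposited counts were divided between similar forms differently from library to library: WT replicate 8 had 71.4 counts on Fmr1-005 and 55.8 on Fmr1-006, whereas WT replicate 4 had 0 and 124. Whether RNA or read assignment differed there was not tested, and sums over classes are given. These classes were chosen after their values were seen and have no test.

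Protein-coding forms with exon 12 held 30.3 counts in all Fmr1-KO libraries together, with at least 1 count in 2 of 8, and 207 counts in WT, with at least 1 in 6 of 8. One of the forms with exon 12, Fmr1-009, had 20.2 counts in Fmr1-KO, all from replicate 4, and was listed at 0 in all WT libraries. Forms without exon 12 held 275 counts in Fmr1-KO and 807 in WT. In shares of all Fmr1 counts, exon 12 forms took 6.8% in Fmr1-KO and 18.8% in WT, and forms without exon 12 took 62.0% and 73.2%. Both classes were thus lower in Fmr1-KO, in summed counts and in share.

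Retained-intron forms that begin in exon 1 held 96.6 counts in Fmr1-KO and 81.7 in WT, so their share was 21.7% and 7.4%. Those that begin inside the gene held 42.0 counts in Fmr1-KO, from 7 of 8 libraries, and 6.11 counts in WT, from 3 of 8. Fmr1-003 begins in intron 3, and the stretch printed above is part of its first exon. Its last exon runs from exon 11 through intron 11 and exon 12 into intron 12. In all, 963 of its bases lie outside the exons of Fmr1-001. Fmr1-003 had 19.5 counts from 4 Fmr1-KO libraries and was listed at 0 in all 8 WT libraries. Fmr1-013, which begins in intron 14, had 22.5 counts from 7 Fmr1-KO libraries and 3.06 counts from 3 WT libraries. At 0 to 6.25 counts per library these are too few to place the reads firmly. Of the 31-base words in Fmr1 transcripts, 3.52% also occur in other genes, and their part in these counts was not tested.

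**Figure D3:**
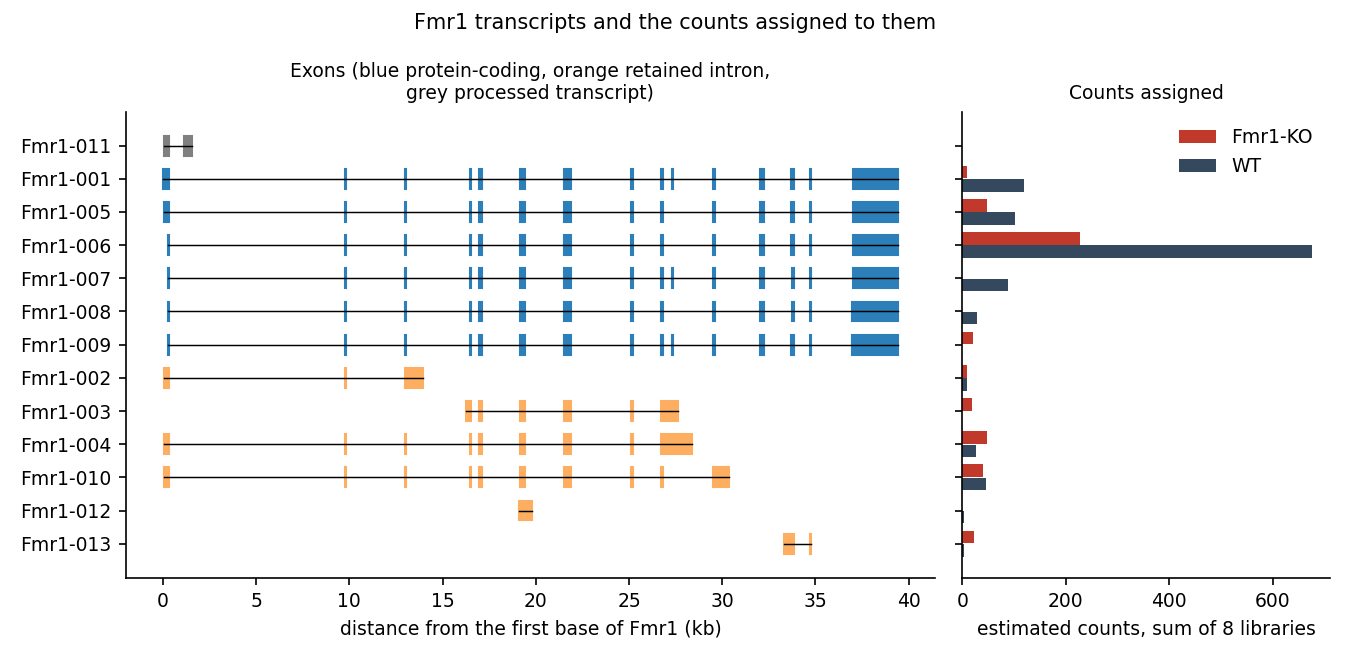
Left, exons of the 13 Fmr1 transcripts as boxes against distance from the first base of the gene in kb, coloured by biotype. Right, estimated counts summed over the 8 Fmr1-KO libraries (red, upper bar) and the 8 WT libraries (grey-blue, lower bar). Fmr1-006 leads in both, and Fmr1-003 and Fmr1-009 have bars in Fmr1-KO alone.

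The paralogues did not pass the test in either direction. Fxr1 (chromosome 3, 34019943 to 34070322) stood at 36.2, 53.1 and 69.7 CPM in Fmr1-KO and 39.3, 57.04 and 71.1 CPM in WT (lowest, median and highest library), and the groups overlapped almost fully. Its log2 fold change was −0.08, with a 95% interval from −0.37 to 0.21, which spans changes from −22.8% to 15.4%. Fxr2 (chromosome 11, 69632990 to 69653297) stood at 116, 140 and 161 CPM in Fmr1-KO and 97.3, 131 and 214 CPM in WT. The highest WT value belonged to the shallow replicate 6. Its log2 fold change was 0.06 (interval −0.21 to 0.33), or −13.8% to 25.7%. The edgeR adjusted p was 0.914 for Fxr1 and 0.942 for Fxr2. Fxr1 counts were spread over 9 transcripts, of which the leading one, Fxr1-001, took 26.2% in Fmr1-KO and 32.1% in WT. Fxr2 counts lay almost wholly on Fxr2-006, at 94.3% in Fmr1-KO and 94.5% in WT. Of the 31-base words in Fxr1 transcripts, 3.51% also occur in other genes, chiefly Dnajc19, which overlaps it on the other strand.

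Cyfip1 and Cyfip2 encode alternative subunits of the WAVE complex that bind Rac1, and Cyfip1 also binds the cap-binding protein eIF4E. Cyfip2 (chromosome 11, 46193850 to 46312859, minus strand) had 1499, 1709 and 1880 CPM in Fmr1-KO and 1120, 1491 and 1766 CPM in WT (lowest, median and highest library). The groups overlapped. Without WT replicates 3 and 6 the WT median was 1544 CPM, and Fmr1-KO replicates 4 and 5, at 1499 and 1543 CPM, lay below it. The log2 fold change, 0.19 (SE 0.08, interval 0.01 to 0.36), had an unadjusted p of 0.0368 and an adjusted p of 0.624 in edgeR. An unadjusted p under 0.05 was reached by 7.89% of all genes, and by 2 of the 10 members, Fmr1 and Cyfip2. In the exact test on protein-coding CPM the same pair were under 0.05, against 8.32% of 10919 genes. For Cyfip2 its p was 0.0196 with all libraries (n = 8 each) and 0.0766 once WT replicates 3 and 6 were set aside, with 1690 ± 123 CPM in Fmr1-KO (n = 8) and 1554 ± 136 CPM in the remaining WT (n = 6). Both of those libraries carry the letter B. Among B mice Cyfip2 stood at 1710 ± 138 CPM in Fmr1-KO, against 1357 ± 168 CPM in WT (n = 4 each, exact permutation p = 0.0286), and among D mice at 1669 ± 124 and 1612 ± 121 CPM (p = 0.486, exact permutation). The same test was run unadjusted for all 10 members in each letter set, and only Fmr1 and Cyfip2 came under 0.05. Whether the Cyfip2 difference depends on the letter was not tested. Cyfip2-001 carried 90.5% of its counts in Fmr1-KO and 89.0% in WT.

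Cyfip1 (chromosome 7, 55841745 to 55932602) had 99.3, 125 and 163 CPM in Fmr1-KO and 114, 133 and 157 CPM in WT, so the ranges overlapped. Its log2 fold change was −0.07 (interval −0.28 to 0.14) and its edgeR adjusted p 0.903. Of the 31-base words in its transcripts, 12.94% also occur in other genes, chiefly Nipa2, which overlaps it on the other strand. If counting ignored strand, which is not given, reads from the pair cannot be fully told apart there.

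**Figure D4:**
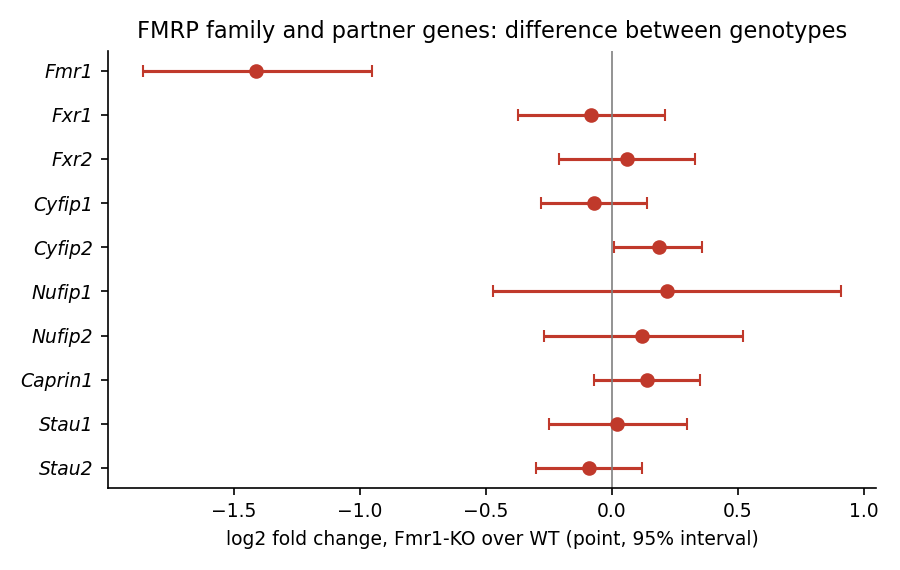
Log2 fold change of each gene, Fmr1-KO over WT (x axis), from the edgeR fit on 8 libraries a genotype, as a point with its 95% interval. Fmr1 lies at −1.41, Cyfip2 at 0.19 has an interval that just clears 0, and those of the other genes include 0.

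The remaining partners did not pass either. Caprin1 (chromosome 2, 103762941 to 103797649, minus strand), which binds the stress granule protein G3BP1, had 183, 230 and 276 CPM in Fmr1-KO and 141, 215 and 225 CPM in WT. Its log2 fold change was 0.14 (interval −0.07 to 0.35, edgeR adjusted p 0.761). Its leading transcript Caprin1-002 was the one tested member transcript with an unadjusted p under 0.05 (0.0289; log2 fold change 0.33, SE 0.14), at 133 ± 31.5 CPM in Fmr1-KO, against 106 ± 9.84 CPM in WT (n = 8 each, edgeR). The ranges, 79.7 to 170 CPM in Fmr1-KO and 88.4 to 116 CPM in WT, overlapped.

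Stau1 (chromosome 2, 166947549 to 166996299, minus strand) averaged 70.1 ± 14.7 CPM in Fmr1-KO, against 70.0 ± 9.36 CPM in WT, with a log2 fold change of 0.02 (interval −0.25 to 0.30). Stau2 (chromosome 1, 16228674 to 16520112, minus strand) averaged 107 ± 13.5 CPM in Fmr1-KO, against 114 ± 14.1 CPM in WT, with −0.09 (interval −0.30 to 0.12). Nufip2 (chromosome 11, 77686155 to 77741921), an RNA-binding partner of FMRP in the cytoplasm, averaged 49.7 ± 5.56 CPM in Fmr1-KO, against 44.9 ± 15.7 CPM in WT, with 0.12 (interval −0.27 to 0.52). In none of these did the genotypes separate. Nufip1 (chromosome 14, 76110891 to 76137379), a nuclear partner that also assembles box C/D snoRNPs, was the scarcest, at 12.3 ± 2.80 CPM in Fmr1-KO, against 10.3 ± 4.57 CPM in WT (n = 8 each). It had 21 to 42 counts per Fmr1-KO library and 0 to 43 per WT library, and its interval was the widest, from −0.47 to 0.91 on the log2 scale. Leaving out WT replicate 3 alone put Nufip2 at 0.01 and Nufip1 at 0.07, against 0.12 and 0.22 with all libraries. Without WT replicates 3 and 6 the log2 fold changes were −0.08 for Fxr1, 0.10 for Fxr2, −0.06 for Cyfip1, 0.12 for Cyfip2, 0.07 for Nufip1, 0.01 for Nufip2, 0.09 for Caprin1, 0.08 for Stau1 and −0.11 for Stau2. The edgeR adjusted p with all libraries was 0.972 for Stau1, 0.871 for Stau2, 0.905 for Nufip2 and 0.904 for Nufip1.

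Of the 91 member transcripts, 29 had enough counts to be tested, 24 of them protein-coding. Their log2 fold changes were above 0 for 16 and below 0 for 13, from −1.57 to 0.95. In edgeR 0 passed the threshold, against 0.00596% of the 16772 transcripts tested, and 1 had an unadjusted p under 0.05, against 3.91% of all. DESeq2 without independent filtering also passed 0 of them, and with it 28 of the 29 were given no adjusted p.

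On the per-length scale Cyfip2 was the most abundant member and Nufip1 the least. Mean levels in WT were 350 TPM for Cyfip2, 149 for Caprin1, 91.4 for Fxr2, 63.3 for Stau2, 56.8 for Cyfip1, 39.9 for Stau1, 38.6 for Fxr1, 24.4 for Fmr1, 16.4 for Nufip2 and 4.02 TPM for Nufip1. Of the 9 neighbouring pairs in that order, all but Stau1 and Fxr1 (exact sign-flip permutation p = 0.422, n = 8 libraries) had an unadjusted p under 0.05. Without WT replicates 3 and 6 the WT order was the same, with means of 436, 179, 115, 77.9, 68.0, 48.4, 47.3, 29.9, 20.5 and 5.25 TPM from Cyfip2 to Nufip1. In those 6 libraries Fxr2 with Stau2, Cyfip1 with Stau1, and Fmr1 with Nufip2 were no longer under 0.05 (exact permutation p = 0.0625, 0.125 and 0.0625). With protein-coding transcripts alone Fxr1 came before Cyfip1 and Stau1 in WT, and 5 of 9 neighbouring pairs were under 0.05. In Fmr1-KO the order with all transcripts was the same as in WT except that Nufip2, at 21.9 ± 5.37 TPM, came before Fmr1, at 16.7 ± 6.27 TPM. Nufip2 was above Fmr1 in 7 of 8 Fmr1-KO libraries, and Fmr1 above Nufip2 in 7 of 8 WT libraries. Among the Fmr1-KO pairs, Stau2 with Cyfip1, Cyfip1 with Stau1, and Stau1 with Fxr1 had exact permutation p-values of 0.273, 0.141 and 0.203.

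Fmr1 as a whole averaged 16.7 ± 6.27 TPM in Fmr1-KO and 24.4 ± 13.8 TPM in WT (n = 8 each, exact permutation p = 0.167), while its protein-coding transcripts averaged 6.87 ± 2.72 TPM in Fmr1-KO and 19.9 ± 11.6 TPM in WT (n = 8 each, exact permutation p = 0.0127). With WT replicates 3 and 6 set aside, the whole gene averaged 29.9 ± 10.97 TPM in WT (n = 6, exact permutation p = 0.0163). Cyfip2 averaged 504 ± 79.5 TPM in Fmr1-KO and 350 ± 176 TPM in WT (n = 8 each, exact permutation p = 0.0347), and without those libraries 436 ± 82.5 TPM in WT (n = 6, p = 0.147, exact permutation). Leaving out any 1 of Fmr1-KO replicates 3, 6, 7 and 8 or of WT replicates 3, 5 and 6 put the Cyfip2 exact permutation p between 0.0524 and 0.0788. Of the 10 genes Cyfip2 alone was under 0.05 in TPM, as were 11.7% of all genes. The TPM p-values are unadjusted over 10 genes, and the median of all genes on the log2(TPM + 1) scale was itself 0.55 higher in Fmr1-KO.

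**Figure D5:**
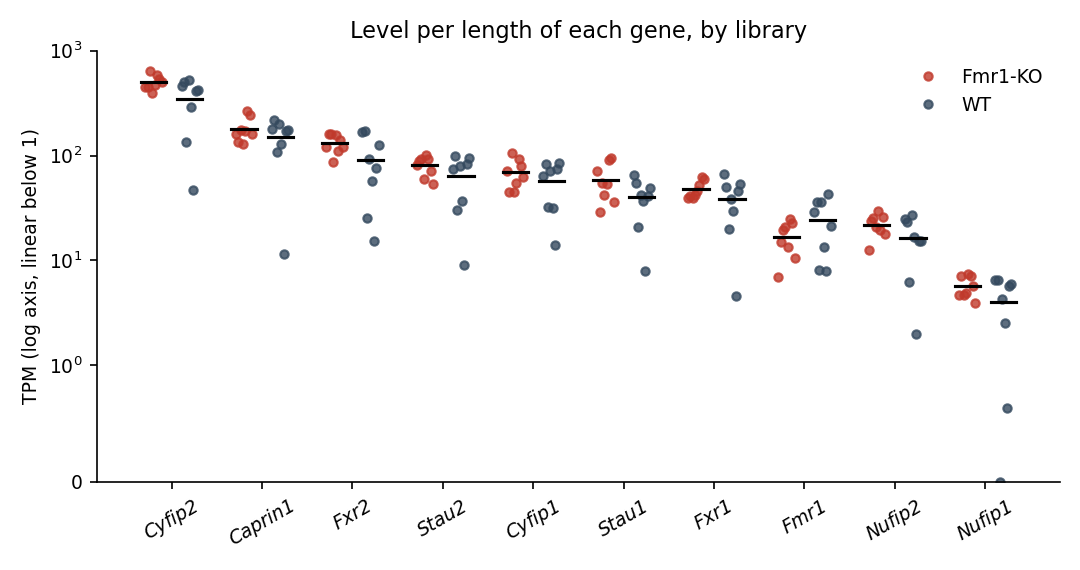
TPM (y axis, log scale, linear below 1) of each gene in each library, ordered by the WT mean, with Fmr1-KO in red left of WT in grey-blue and bars at the means. Fmr1 averages 16.7 TPM in Fmr1-KO and 24.4 TPM in WT, and the lowest WT point of each gene comes from replicate 3 or 6.

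Wider sets of partner genes gave 0 genes past the threshold in edgeR and 0 in DESeq2 without independent filtering. An unadjusted p under 0.05 was reached in edgeR by Wasf1 and Ago2, and in DESeq2 by 1 gene in each list except that of box C/D snoRNPs, where neither tool had any. That makes 2 of the 57 list genes tested in edgeR and 3 in DESeq2, against 7.89% and 9.12% of all genes. The WAVE complex and Rac list had 10 of 11 genes tested, 6 above 0 and 4 below, with a median log2 fold change of 0.04, equal to the median of the 10 members and close to that of all genes, −0.01. Wasf1, the neuronal WAVE protein, stood at 599 ± 53.8 CPM in Fmr1-KO, against 514 ± 43.0 CPM in WT (n = 8 each; log2 fold change 0.22, unadjusted p 0.00976, edgeR adjusted p 0.572). On the same list Abi2 and Nckap1l, the second a form of blood cells and microglia, had 0.18 and −0.77, but 0.11 and −0.22 without WT replicate 3. The RNA granule and transport list had 24 of 24 tested, 19 above 0 and 5 below, with a median of 0.07; Cpeb4, a translational regulator, had 0.24, the dynein heavy chain Dync1h1 0.23, and Purb, a granule protein that binds single-stranded nucleic acid, 0.18.

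The RISC and cap-binding list had 13 of 13 tested, 10 above 0 and 3 below, with a median of 0.16. Ago2, the slicing Argonaute, stood at 228 ± 29.7 CPM in Fmr1-KO, against 193 ± 38.8 CPM in WT (n = 8 each; log2 fold change 0.25, unadjusted p 0.0458, edgeR adjusted p 0.628). Tnrc6b, an Argonaute scaffold, had 0.22, and the cap-binding Eif4e −0.20. The box C/D snoRNP list around Nufip1 named 11 symbols, of which 10 are in the deposited tables, and all 10 were tested. Of these, 3 lay above 0 and 7 below, with a median of −0.13. The core protein Nop56 had −0.21, and the ATPases Ruvbl1 and Ruvbl2 −0.29 and −0.31. Without WT replicate 3 Ruvbl2 stood at −0.02. Across all genes tested, 5538 lay above 0 and 5977 below.

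The genes whose profile over the 16 libraries was most like that of Fmr1, by the root-mean-square difference of centred log2(CPM + 1), were Ints12 (0.518), Adam12 (0.526) and Rreb1 (0.535). Ints12 averaged 5.81 ± 3.05 CPM in Fmr1-KO, against 9.51 ± 3.20 CPM in WT, Adam12 7.88 ± 3.53 and 12.5 ± 4.15 CPM, and Rreb1 11.6 ± 4.99 and 21.1 ± 5.72 CPM (SD, n = 8 each). As they were picked for likeness to Fmr1 in these same libraries, their lower Fmr1-KO means follow from that choice and are not a separate result. None of the 3 genes passed the threshold, with edgeR adjusted p-values of 0.628, 0.628 and 0.517.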

How the data were processed

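Total RNA of 16 CA1 samples (Maxwell 16 LEV extraction, Illumina HiSeq) was sequenced, per the labels' protocols. FastQC, cutadapt, kallisto and DESeq2 appear in the submitters' processing notes without versions or order, and a genome build or index is not given in the sources used here. The deposited estimated counts (expected counts) are reads that the authors' quantification assigned to each transcript, and need not be whole. TPM, also deposited, divides by effective length within a library and keeps no depth. Whether counting used strand is not given.

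Estimated counts were summed per gene symbol, rounded and tested on the whole table with edgeR 4.0.16 (quasi-likelihood test, TMM, filterByExpr with a minimum count of 10, genotype only, R 4.3.3). P-values were adjusted by Benjamini-Hochberg, and 0.05 was the threshold. Transcripts were tested likewise. SE is the log2 fold change divided by the root of F. Values of 1 gene were compared by exact two-sided permutation of the difference in means (Python 3.11.15), and neighbours in TPM by sign flips within libraries. These p-values are unadjusted, as the genes were chosen. Shares took libraries with at least 10 counts for the gene. Exons, positions, sequences and 31-base words came from GENCODE M21 (GRCm38).

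The members and lists were chosen with earlier results of these data known. Named were all members and, per partner list, the 3 genes with the smallest p and any past the threshold, and the 3 genes most like Fmr1. Groups and letters came from the labels, and replicate numbers only name libraries. A further CA1 marker on the list is not reported here. Alternatives were DESeq2 1.42.0, limma 3.58.1 (voom with quality weights, log2(TPM + 1), log2(TPM + 0.1)), other scalings and filters, the letter as covariate, protein-coding transcripts alone, another biotype grouping, and leaving out WT replicates 3 and 6 or each library. DESeq2 without independent filtering was added after its default gave Fmr1 a p but no adjusted p. The fits were tested on simulated data.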

Additional observations from a re-analysis of the deposited data

Results flagged for a closer look

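Of 26 sets of 8 values examined for a value far from the rest of its genotype, 2 held one, and chance flags about 1 in 20. Fmr1 in WT replicate 7 was 99.7 CPM, and the next WT library was at 66.0 CPM. The gap was 0.561 of the WT range, above the critical value of 0.526. This library is above its group and away from the Fmr1-KO values. Nufip1 in WT replicate 3 was 0.0 CPM, and the next WT library was at 8.22 CPM, a gap of 0.575 of the range. That library held 878484 estimated counts in all, and the part of depth in this value was not tested.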

How the results depend on the processing

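The fall of Fmr1 passed the threshold in 8 other settings, namely edgeR with DESeq2 size factors, library totals, no filter, 1 CPM in 8 libraries, the letter as covariate or without WT replicates 3 and 6, limma-voom with quality weights, and DESeq2 without independent filtering (adjusted p 1.39e-06). DESeq2 with that filtering gave Fmr1 an unadjusted p of 2.41e-10 and no adjusted p, and called 0 of the 4 members that had one. Fits of log2(TPM + 1) and log2(TPM + 0.1) called 0 members. Relative to the median of all genes, which these scales moved by 0.55 and 0.62, Fmr1 stood at −0.93 and −1.02, Fxr1 at 0.021 in the first, Stau2 at 0.053 in the first, and Caprin1 at −0.005 and −0.068, so Fxr1, Stau2 and Caprin1 changed sign. The cause was not tested. Leaving out 1 library at a time kept Fmr1 between −1.49 and −1.24 (highest adjusted p 0.047), while Stau1 ranged from −0.034 to 0.083 and changed sign. Of the 27 tested member transcripts not named with a test, 11 changed sign in at least 1 setting and 0 were called in any.

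The exact tests gave an unadjusted p under 0.05 for 2 genes in protein-coding CPM (Fmr1 and Cyfip2) and for 1.0 without WT replicates 3 and 6, for 1.0 gene in protein-coding share (1.0 to 2.0 with 1 library left out), and for 1.0 gene in TPM (0.0 to 2.0 with 1 library left out, 2.0 with protein-coding transcripts alone). Fmr1's own TPM difference was −13.02 TPM with protein-coding transcripts alone and −13.2 TPM without WT replicates 3 and 6, both then under 0.05. In TPM, Fxr2 came under 0.05 without WT replicate 1 or 2 (exact permutation p = 0.0354 and 0.0315, n = 8 and 7) and Stau1 without Fmr1-KO replicate 2 (exact permutation p = 0.0482, n = 7 and 8). In protein-coding CPM, Caprin1 did so without Fmr1-KO replicate 5 (exact permutation p = 0.0294) and Stau2 without WT replicate 3 (0.0357). Of the 9 neighbouring pairs in WT, 8 had an unadjusted p under 0.05, against 5.0 with protein-coding transcripts alone and 5.0 without WT replicates 3 and 6, where 6 libraries can give no p below 0.0312. No paired analysis was possible because the labels share no replicate number between the genotypes and the numbers used here only name libraries. In data simulated at these depths, changes were given only to genes or transcripts at or above the median level. Among them 2-fold changes were recovered for 30.2% of changed transcripts and 91.2% of changed genes, and 1.5-fold changes for 15.4% and 52.5%.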
